A study of Mus musculus with 18 samples.

Results

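The genes described here are the fibroblast growth factor (FGF) ligands, their receptors, the carriers that bind the ligands and the feedback genes that FGF signalling switches on. They were taken by symbol: every Fgf gene with a number, Fgfr1 to Fgfr4, Fgfbp1, Fgfbp3, Spry1 to Spry4 and Dusp6. This gave 33 of the 23420 gene symbols counted. By role they were 15 secreted ligands, 3 endocrine ligands (Fgf15, Fgf21 and Fgf23), 4 intracellular FGFs (Fgf11 to Fgf14), 4 receptors, 2 binding proteins and 5 feedback genes. RNA was sequenced in 18 libraries, which formed 9 groups of 2, from E14 cells, a wild type line of mouse embryonic stem (ES) cells, and from neural cultures grown from that line. In the undifferentiated state, grown without feeder cells in serum and LIF, the groups were ES cells given LG268 together with GW3965, LG268, or GW3965, each at 1 µM for 24 h, and ES control cells, where the vehicle was dimethylsulfoxide. Cultures made up the other 5 groups: day 8, day 16 with GW3965, day 16, day 17 with GW3965, and day 17. All of them came through embryoid bodies (floating aggregates without LIF) that had received 5 µM retinoic acid over 4 days and were then plated on laminin and poly-L-ornithine in N2 medium. How long cultures were kept in GW3965 (1 µM) is not in the labels. The names of the deposited tables read as from day 8 onward for day 16 and as 24 h for day 17, so the GW3965 groups of days 16 and 17 may differ in exposure as well as in age. GW3965 is an agonist of the liver X receptors (LXR) and LG268 of the retinoid X receptors (RXR), their partners on DNA. Nothing in the labels said whether the 2 libraries of a group came from separate cultures, so p values measure the spread between these libraries, which may be technical.

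Secreted FGFs bind receptor tyrosine kinases at the cell surface together with heparan sulfate, and the receptors signal mainly through the RAS and ERK kinase cascade. Endocrine FGFs bind heparan sulfate weakly, travel in blood and need a Klotho protein as co-receptor, while intracellular FGFs are not secreted and bind voltage-gated sodium channels of neurons. Sprouty proteins (Spry1 to Spry4) and the phosphatase Dusp6 are induced by ERK signalling and dampen it. In mouse ES cells, Fgf4 acting through Fgfr1 and Fgfr2 primes cells for differentiation, Fgf5 marks the epiblast around implantation, and in the developing nervous system FGFs pattern tissue and act on progenitors and glia.

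Gene counts per library were 16748556 to 44788592, and 17166 genes passed the filter on low counts and were tested. Abca1 and Abcg1, cholesterol exporters that LXR induces, checked the ligand labels: Abca1 had 576 and 531 CPM with both ligands, 39.9 and 38.1 CPM with LG268 and 345 and 327 CPM with GW3965, against 8.79 and 7.51 CPM in ES control, and both genes were also higher with GW3965 at day 16 (3.88-fold and 8.75-fold) and at day 17 (2.20-fold and 5.02-fold). All samples carried the cell type label embryonic stem cells. The 8 pluripotency markers summed to 114 to 250.2 CPM (counts per 1000000 counts of a library) in libraries of days 8 to 17, against 2594 to 2865 CPM in the ES groups, so the libraries of days 8 to 17 went against that label and are called cultures. Neuron markers summed to 1249 to 3217 CPM in cultures, and the astrocyte marker Gfap reached 2178 and 2529.9 CPM at day 17. The 4 markers of microglia and leukocytes summed to at most 3.692 CPM in any library. In RNA of whole cultures, fewer cells of a type and less RNA per cell cannot be told apart. Reads listed as aligned more than once made up 31.84 to 33.53% of the day 17 libraries and were 0 in the other 14, so the comparison of day 17 with day 16 crosses a difference in processing. The libraries of day 16 with GW3965 stood apart from each other by more than the libraries of the remaining groups did (chi-square per gene 42.07, against 2.858 to 10.74 in the other 8 groups). Fold changes of FGF genes that passed the test with GW3965 at day 16 are given without each of these libraries. Other pathway genes and cell type markers are given with both libraries only.

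Of the 33 genes, 29 passed the filter and 28 of these were called (adjusted p below 0.05) in at least 1 of 15 comparisons. Day 8 against ES control alone called 78.7% of all genes. The share of all genes called in any of the 15 was not counted, so this number is not read as a trait of FGF genes. Fgf23, an endocrine ligand made by bone cells, passed the filter and was called in none, at 0 to 0.710 CPM over all libraries. Of the 4 genes not tested, Spry3 had no count in any library. By the plain gene counts of a library, this allows up to 0.0670 CPM in the deepest library and 0.1791 CPM in the shallowest (3 counts). Fgf6 had 1 count in all, in ES control. Fgf20 reached 0.425 CPM at most, at day 8, and Fgf22 reached 0.477 CPM, in ES cells given LG268. Between 19 and 25 of the 33 genes reached a mean of 1 CPM in a group: 21 in each of the 4 ES groups, 19 at day 8, 22 at day 16 with GW3965, and 25 in each of the remaining groups. The plot of all levels shows an ES set (Fgf4, Fgf5, Fgf8 and Fgf17) and a culture set (Fgf9, Fgf12, Fgf18, Fgfr2 and Fgfr3).

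**Figure D1:**
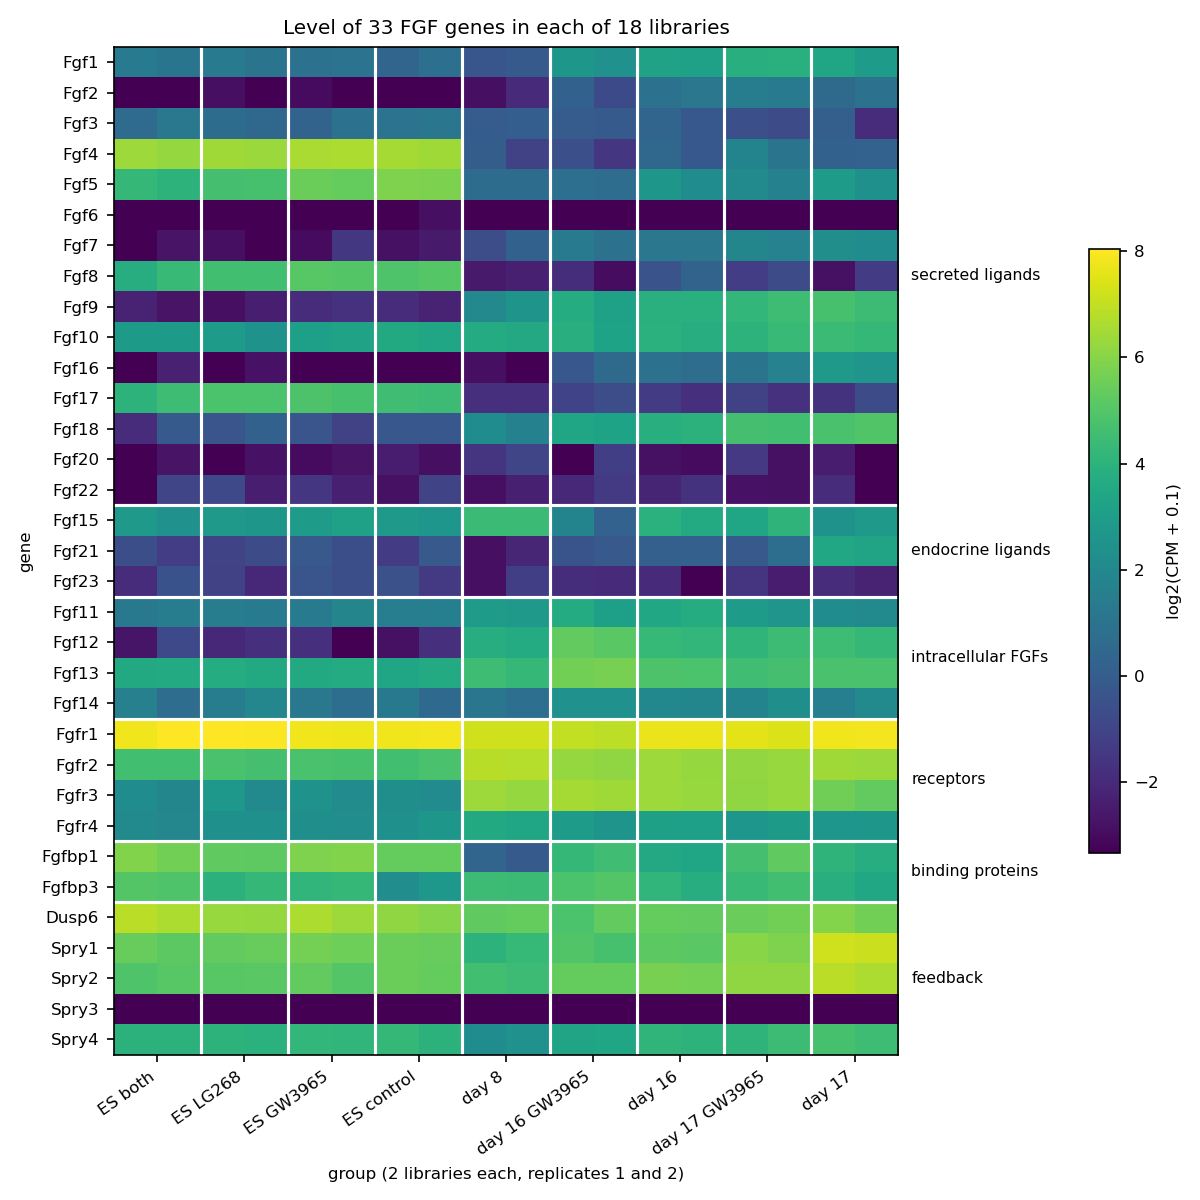
Level of each of the 33 FGF genes in each of 18 libraries, as log2(CPM + 0.1), with genes in rows by role and libraries in columns by group (2 libraries each). Fgfr1 lies above 100 CPM in all 18 libraries, and Fgf4, Fgf5, Fgf8 and Fgf17 are high in the 8 ES libraries and low in cultures.

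Levels of different genes were compared per kilobase of exon (CPM per kb), as means of 2 libraries. In ES control the order began with Fgf4 (29.0 CPM per kb), Fgfr1 (23.4), Fgf8 (23.1), Fgf5 (22.4) and Dusp6 (21.3), and among receptors Fgfr2 (2.56), Fgfr4 (1.71) and Fgfr3 (0.649) lay far below Fgfr1. At day 8 no ligand was among the 6 highest: the order ran Fgfr1 (15.2), Dusp6 (12.7), Fgfbp3 (12.4), Fgfr3 (11.1), Fgfr2 (11.1) and Spry2 (11.1), of which the last 3 lie within 0.1 CPM per kb of each other. At day 17 Spry2 (51.9) and Spry1 (50.0) stood above all others, and Fgf18 (24.5), a ligand of bone, lung and brain development, was the highest ligand.

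In ES cells, Fgfbp3 rose with each ligand alone and more with both, while Fgf5 fell with LG268 and with both ligands. Fgfbp3 encodes a secreted protein that binds FGFs and releases them from the extracellular matrix. It had 31.8 and 30.3 CPM with both ligands, 15.4 and 18.6 CPM with LG268 and 17.9 and 18.9 CPM with GW3965, against 4.70 and 6.52 CPM in ES control. All 6 libraries with ligand lay above both controls, and the libraries with both ligands lay above the other 4. The rise was 5.50-fold with both ligands (log2 fold change 2.46 ± 0.16, adjusted p = 4.01e-09), 3.01-fold with LG268 (log2 fold change 1.59 ± 0.17, adjusted p = 2e-05) and 3.26-fold with GW3965 (log2 fold change 1.70 ± 0.17, adjusted p = 3.14e-06), where ± gives the standard error of the edgeR quasi-likelihood fit. Both ligands together gave 1.83-fold more than LG268 (log2 fold change 0.87 ± 0.15, adjusted p = 0.0023) and 1.69-fold more than GW3965 (log2 fold change 0.76 ± 0.14, adjusted p = 0.00302). LG268 and GW3965 alone did not differ detectably in Fgfbp3 (log2 fold change -0.11 ± 0.15, adjusted p = 0.938).

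Fgf5, the epiblast ligand, had 19.1 and 16.3 CPM with both ligands, 25.7 and 26.4 CPM with LG268 and 45.2 and 40.2 CPM with GW3965, against 56.9 and 54.9 CPM in ES control. The 4 groups did not overlap. Here and below, a lack of overlap describes the 2 libraries printed for each group, and its share over all genes was not counted. Fgf5 was 3.16-fold lower with both ligands (log2 fold change -1.66 ± 0.15, adjusted p = 4.83e-07) and 2.15-fold lower with LG268 (log2 fold change -1.10 ± 0.14, adjusted p = 0.000218), and its value with GW3965 did not pass the test (log2 fold change -0.38 ± 0.14, adjusted p = 0.6). Against GW3965 it was lower with both ligands (log2 fold change -1.28 ± 0.15, adjusted p = 3.71e-05) and with LG268 (log2 fold change -0.72 ± 0.14, adjusted p = 0.0194), and with both ligands it was lower than with LG268 (log2 fold change -0.56 ± 0.15, adjusted p = 0.0429). As the ES comparisons share control libraries, their values are given side by side and not compared as independent results.

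The stretch of 250 bases before the RefSeq start of Fgfbp3 and of Fgf5 is shown here because these genes carry the ligand responses of ES cells. Sequences are from RefSeq on build GRCm38.p6 (the assembly also called mm10, which the submitters used), read 5′ to 3′ on the strand of the gene, with motif matches in capitals. Fgfbp3 lies on chromosome 19 on the minus strand, and its stretch is chr19:36919600-36919849, minus strand, with a TATAAA match on the opposite strand (read here as TTTATA) 214 bases before the start. Fgf5 lies on chromosome 5 on the plus strand, and its stretch is chr5:98253934-98254183, plus strand, with a match to the sterol regulatory element TCACNCCAC on the opposite strand, also 214 bases before the start.
Fgfbp3: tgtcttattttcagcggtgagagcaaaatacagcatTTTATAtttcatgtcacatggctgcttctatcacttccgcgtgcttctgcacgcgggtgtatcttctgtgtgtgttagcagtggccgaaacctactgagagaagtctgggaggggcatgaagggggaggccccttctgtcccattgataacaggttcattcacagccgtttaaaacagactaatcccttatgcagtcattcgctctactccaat
Fgf5: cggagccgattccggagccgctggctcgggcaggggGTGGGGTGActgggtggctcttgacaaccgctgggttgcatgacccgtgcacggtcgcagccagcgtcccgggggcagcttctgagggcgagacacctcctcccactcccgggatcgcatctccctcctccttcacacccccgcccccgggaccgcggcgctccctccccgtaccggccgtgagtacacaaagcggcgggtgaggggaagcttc
Neither stretch held AGGTCA on either strand, the core hexamer that nuclear receptors such as RXR and LXR bind. That hexamer was found in the same window of 3 of the 24 FGF genes searched (Fgf6, Fgf7 and Fgf12) and in 15.76% of 27025 symbols. TCACNCCAC occurred in 1.22% of these symbols and TATAAA in 14.33%. A match is a description of these letters in this window and nothing more.

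**Figure D2:**
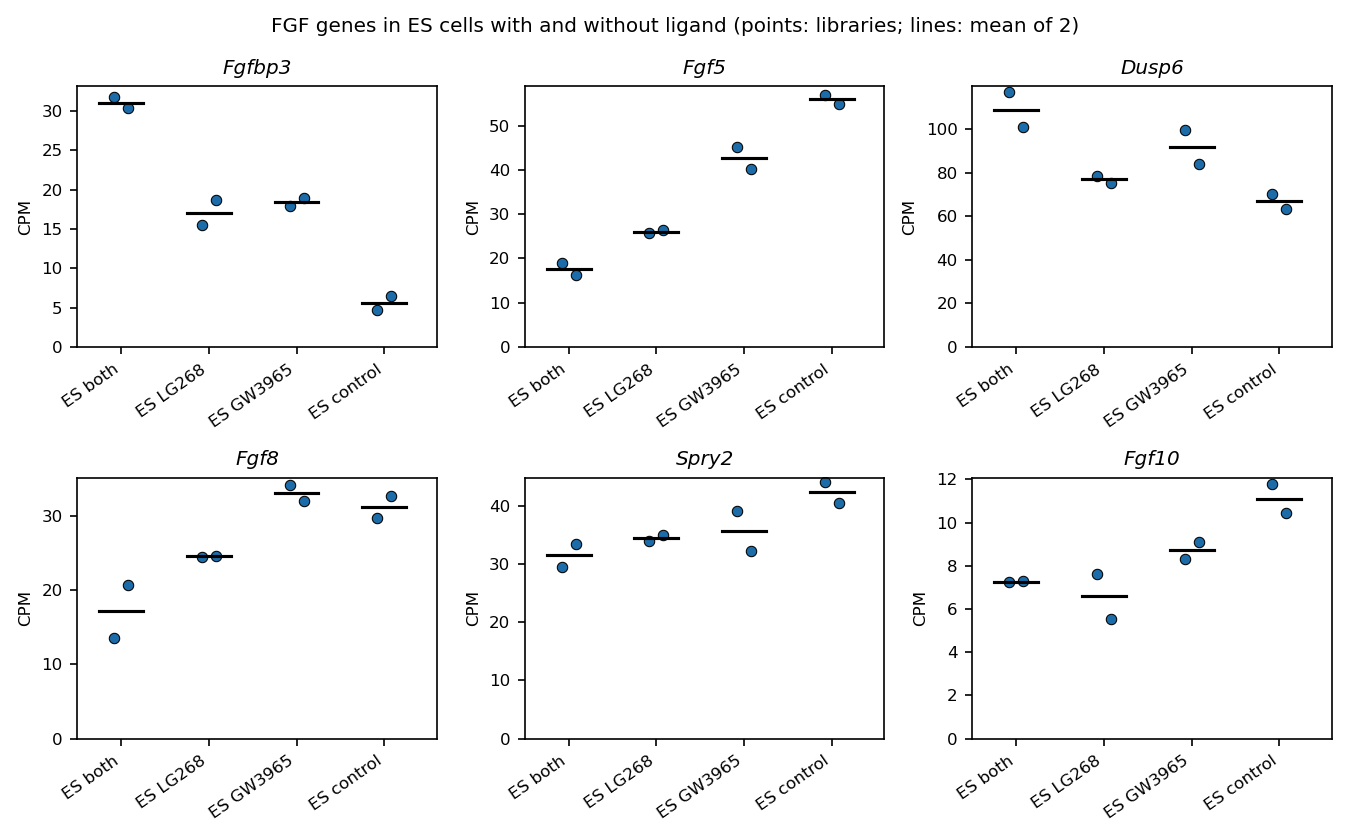
CPM of 6 FGF genes in ES cells with both ligands, LG268, GW3965 and in ES control (points: libraries, lines: means of 2). Fgfbp3 lies highest and Fgf5 lowest with both ligands.

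With LG268, 2 of 29 tested FGF genes were called, 1 higher and 1 lower, against 0.851% of all genes (0.518% higher and 0.332% lower). With GW3965 the count was 1, against 0.320% of all genes (0.309% higher and 0.0117% lower). In a fit of only the groups compared the counts were 8 of 23 tested FGF genes with LG268, against 5.60% of all genes, and 4 of 24 with GW3965, against 2.46%. With both ligands 6 were called, 2 higher and 4 lower, against 11.3% of all genes (4.83% higher and 6.47% lower). The median log2 fold change of the 29 genes with both ligands was -0.143, against -0.004 over all genes. Dusp6, the ERK phosphatase, had 117 and 101 CPM with both ligands, against 70.1 and 63.4 CPM in ES control, and rose 1.63-fold (log2 fold change 0.71 ± 0.13, adjusted p = 0.00121). Its libraries with both ligands lay above all other ES libraries. Fgf8, a ligand of gastrulation and of the midbrain organiser, had 13.5 and 20.7 CPM with both ligands, against 29.7 and 32.6 CPM in ES control, and fell (log2 fold change -0.86 ± 0.18, adjusted p = 0.00455). Spry2 fell to 29.5 and 33.5 CPM, against 44.1 and 40.4 CPM (log2 fold change -0.42 ± 0.10, adjusted p = 0.00953), so Dusp6 and Spry2 moved in opposite directions. Fgf10, a ligand of branching organs and of neural progenitors, fell to 7.24 and 7.29 CPM, against 11.8 and 10.4 CPM (log2 fold change -0.61 ± 0.19, adjusted p = 0.0433).

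In the fit of all groups, the other FGF genes did not pass the test against ES control with LG268, with GW3965 or with both. That fit shares its estimate of spread over all groups, though their libraries did not stand apart equally. Chi-square per gene was 42.07 at day 16 with GW3965, against 2.858 to 10.74 in the ES groups. In a fit of only the groups compared, 8 of 23 tested FGF genes were called with LG268 (5.60% of all genes) and 4 of 24 with GW3965 (2.46%). A lack of a call here is therefore not read as no response. Fgf4, the main ligand of ES cells, had 82.7 and 76.0 CPM with both ligands, 86.0 and 79.9 CPM with LG268 and 97.4 and 101 CPM with GW3965, against 89.7 and 86.2 CPM in ES control. Fgf17 had 16.3 and 23.0 CPM with both ligands, 28.2 and 28.4 CPM with LG268 and 29.3 and 26.8 CPM with GW3965, against 23.5 and 22.3 CPM in ES control. Fgfbp1 had 59.9 and 49.0 CPM with both ligands, 37.9 and 37.7 CPM with LG268 and 57.3 and 58.3 CPM with GW3965, against 41.0 and 41.2 CPM in ES control. Fgf17 with both ligands lay below all 4 libraries with either ligand alone, and Fgfbp1 in the 4 libraries with GW3965 lay above the other 4. Among receptors Fgfr1 had 225 and 257 CPM with both ligands, 263 and 255 CPM with LG268 and 222 and 217 CPM with GW3965, against 225 and 228 CPM in ES control. Fgfr2 had 24.0 and 24.0 CPM with both ligands, 27.4 and 25.3 CPM with LG268 and 27.7 and 26.8 CPM with GW3965, against 23.8 and 27.4 CPM in ES control. Fgfr3 had 4.49 and 3.57 CPM with both ligands, 6.64 and 4.25 CPM with LG268 and 5.56 and 4.31 CPM with GW3965, against 4.88 and 4.35 CPM in ES control. The values of each of these receptors overlapped between both ligands and ES control. Fgfr4 had 4.04 and 3.78 CPM with both ligands, 5.10 and 5.15 CPM with LG268 and 4.92 and 4.61 CPM with GW3965, against 5.14 and 6.36 CPM in ES control. The libraries with both ligands were the lowest of the 8 for this receptor (log2 fold change -0.56 ± 0.19, adjusted p = 0.056).

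Of the feedback genes Spry1 had 41.5 and 35.7 CPM with both ligands, 40.1 and 41.5 CPM with LG268 and 49.9 and 46.1 CPM with GW3965, against 45.4 and 41.9 CPM in ES control. Spry4 had 15.5 and 15.7 CPM with both ligands, 16.0 and 15.4 CPM with LG268 and 18.3 and 17.5 CPM with GW3965, against 19.0 and 15.4 CPM in ES control. Dusp6 had 78.6 and 75.2 CPM with LG268 and 99.4 and 83.9 CPM with GW3965, and Spry2 had 34.0 and 34.9 CPM with LG268 and 39.1 and 32.1 CPM with GW3965. Spry2 was below both controls in all 6 libraries with ligand, while Dusp6 was above them in all 6. Fgf15 had 6.79 and 5.35 CPM with both ligands, 6.68 and 6.44 CPM with LG268 and 7.56 and 8.97 CPM with GW3965, against 6.77 and 6.08 CPM in ES control. Fgf13, an intracellular FGF, had 11.9 and 12.3 CPM with both ligands, 12.8 and 11.7 CPM with LG268 and 11.7 and 12.5 CPM with GW3965, against 10.5 and 12.3 CPM in ES control. Fgf11 had 2.30 and 2.73 CPM with both ligands, 2.72 and 2.53 CPM with LG268 and 2.42 and 3.54 CPM with GW3965, against 2.77 and 2.92 CPM in ES control. Of these 3 genes, Fgf15 was highest in both libraries with GW3965, with 5.35 to 8.97 CPM over the 8 ES libraries. Fgf13 had 10.5 to 12.8 CPM and Fgf11 2.30 to 3.54 CPM over them. Fgf14 had 3.03 and 1.57 CPM with both ligands, 2.64 and 3.77 CPM with LG268 and 2.28 and 1.64 CPM with GW3965, against 2.29 and 1.38 CPM in ES control. Fgf3 had 1.46 and 2.25 CPM with both ligands, 1.54 and 1.29 CPM with LG268 and 1.13 and 1.84 CPM with GW3965, against 1.93 and 2.09 CPM in ES control. Fgf1 had 2.47 and 2.05 CPM with both ligands, 2.57 and 1.96 CPM with LG268 and 1.79 and 1.90 CPM with GW3965, against 1.19 and 1.66 CPM in ES control. Fgf1 in all 6 libraries with ligand lay above both controls, although the difference did not pass the test with both ligands (log2 fold change 0.65 ± 0.27, adjusted p = 0.129). Fgf8 had 24.5 and 24.5 CPM with LG268 and 34.1 and 32.0 CPM with GW3965, and Fgf10 had 7.63 and 5.53 CPM with LG268 and 8.32 and 9.12 CPM with GW3965. Fgf18 had 0.168 and 0.839 CPM with both ligands, 0.698 and 1.05 CPM with LG268 and 0.710 and 0.359 CPM with GW3965, against 0.747 and 0.751 CPM in ES control. Fgf21 had 10 and 6 counts with both ligands, 11 and 11 counts with LG268 and 33 and 11 counts with GW3965, against 7 and 20 counts in ES control. Both lay below 1.1 CPM in every ES library. Fgf12 had 1 and 9 counts with both ligands, 4 and 4 counts with LG268 and 8 and 0 counts with GW3965, against 1 and 5 counts in ES control. Fgf9 had 2 and 1 counts with both ligands, 1 and 2 counts with LG268 and 7 and 4 counts with GW3965, against 4 and 3 counts in ES control. Fgf7 had 0 and 1 counts with both ligands, 1 and 0 counts with LG268 and 1 and 5 counts with GW3965, against 1 and 2 counts in ES control. All 3 had at most 9 counts in any ES library. Fgf2 had 0 and 0 counts with both ligands, 1 and 0 counts with LG268 and 1 and 0 counts with GW3965, against 0 and 0 counts in ES control. Fgf16 had 0 and 2 counts with both ligands, 0 and 1 counts with LG268 and 0 and 0 counts with GW3965, against 0 and 0 counts in ES control.

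The smaller calls with both ligands were lost under other settings or with single libraries left out, which also leaves fewer libraries for the test. Fgf10 was no longer called with DESeq2 size factors, with limma-voom or without both-ligand replicate 2 (adjusted p = 0.0525 to 0.1). Fgf10, Fgf8 and Spry2 were no longer called in a fit of only the groups compared or without both-ligand replicate 1 (adjusted p = 0.0539 to 0.183). Fgf10 and Spry2 were no longer called without ES control replicate 1 (adjusted p = 0.103 to 0.224). Fgf10 and Fgf8 were no longer called without ES control replicate 2 (adjusted p = 0.0541 to 0.0926).

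Set against the single ligands, both ligands together gave 4 called FGF genes over LG268, 3 higher and 1 lower, against 4.21% of all genes (1.63% higher and 2.57% lower). Over GW3965 they gave 5, 1 higher and 4 lower, against 10.7% of all genes (3.68% higher and 6.98% lower). LG268 against GW3965 called 1, Fgf5, against 0.600% of all genes (0.285% higher and 0.315% lower). Beside Fgfbp3 and Fgf5, both ligands over LG268 gave higher Dusp6 (log2 fold change 0.50 ± 0.12, adjusted p = 0.0277) and higher Fgfbp1, another carrier of FGFs (log2 fold change 0.52 ± 0.14, adjusted p = 0.0452). Both ligands over GW3965 gave lower Fgf8 (log2 fold change -0.95 ± 0.18, adjusted p = 0.00325), lower Fgf17, a close relative of Fgf8 (log2 fold change -0.52 ± 0.15, adjusted p = 0.0335), and lower Spry1 (log2 fold change -0.32 ± 0.10, adjusted p = 0.0375). The term for a departure from additivity of the log2 responses called none of the 29 FGF genes with edgeR, against 0.134% of all genes (0.00583% higher and 0.128% lower), with 4 at an unadjusted p below 0.05. Of these, Fgfbp3 had -0.83 (adjusted p = 0.111) and Fgf17 -0.82 (adjusted p = 0.099). Fgfbp3 was called with the DESeq2 Wald test and Fgf17 with limma-voom, 1 gene each. How many of all genes had an unadjusted p below 0.05 here was not counted.

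Single libraries and settings ended several of these calls. For both ligands against LG268, Dusp6, Fgf5 and Fgfbp1 were no longer called in a fit of only the groups compared, without ES LG268 replicate 2 or without both-ligand replicate 1 (adjusted p = 0.052 to 0.463). Dusp6, Fgf5, Fgfbp1 and Fgfbp3 were no longer called without ES LG268 replicate 1 (adjusted p = 0.068 to 0.205). Fgf5 was no longer called without both-ligand replicate 2 (adjusted p = 0.118). For both ligands against GW3965, Fgf17, Fgf8 and Spry1 were no longer called in a fit of only the groups compared or without both-ligand replicate 1 (adjusted p = 0.0504 to 0.407). Fgf17, Fgf8, Fgfbp3 and Spry1 were no longer called without ES GW3965 replicate 1 (adjusted p = 0.0539 to 0.267). Fgf17 and Spry1 were no longer called without ES GW3965 replicate 2 (adjusted p = 0.0677 to 0.0784). Spry1 was no longer called with DESeq2 size factors or without both-ligand replicate 2 (adjusted p = 0.0577 to 0.204). For LG268 against GW3965, Fgf5 was no longer called without ES GW3965 replicate 1, without ES GW3965 replicate 2, without ES LG268 replicate 1 or without ES LG268 replicate 2 (adjusted p = 0.0833 to 0.298).

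From ES control to day 8 most of the FGF genes changed, as did most genes. Of 29 tested, 25 were called, 12 higher and 13 lower, against 78.7% of all genes (39.7% higher and 39.1% lower). The ligands of ES cells fell steeply, ligands of later tissues appeared at low levels, and the receptors shifted toward Fgfr2 and Fgfr3.

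Fgf4, the ligand by which ES cells signal to themselves, had 0.928 and 0.359 CPM at day 8, against 89.7 and 86.2 CPM in ES control. It was 140.4-fold lower (log2 fold change -7.13 ± 0.21, adjusted p = 5.91e-17), and day 8 replicate 2 lay lowest. Fgf5 had 1.51 and 1.53 CPM at day 8, against 56.9 and 54.9 CPM in ES control, 36.6-fold lower (log2 fold change -5.19 ± 0.20, adjusted p = 2.45e-15). Fgf17 had 0.193 and 0.196 CPM, against 23.5 and 22.3 CPM, 115-fold lower (log2 fold change -6.84 ± 0.27, adjusted p = 6.62e-15). These 3 ligands thus lay below 2 CPM in every day 8 library and above 22 CPM in every ES control library. Fgf8 had 2 and 3 counts at day 8, against 676 and 825 counts in ES control, and was 353-fold lower by summed counts (95% counting interval 151 to 1088), an interval that covers counting error only. Fgf3, a ligand of inner ear and hindbrain, had 0.890 and 0.947 CPM at day 8, against 1.93 and 2.09 CPM in ES control, and was lower (log2 fold change -1.13 ± 0.43, adjusted p = 0.021). Fgf1, a ligand that binds all FGF receptors, had 0.735 and 0.817 CPM, against 1.19 and 1.66 CPM (log2 fold change -0.87 ± 0.30, adjusted p = 0.0114).

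Other ligands rose. Fgf9, a ligand of glia and neurons, had 4.02 and 5.75 CPM at day 8, against 4 and 3 counts in ES control, and was 34.0-fold higher by summed counts (95% counting interval 16.3 to 85.5). Fgf18 had 4.53 and 3.04 CPM, against 0.747 and 0.751 CPM (log2 fold change 2.32 ± 0.32, adjusted p = 1.6e-06). Fgf7, which acts on epithelial cells, had 14 and 32 counts, against 1 and 2 counts, and was 13.1-fold higher by summed counts (95% counting interval 4.20 to 65.6). All 3 were low in ES control and their groups did not overlap. Fgf2 was called (adjusted p = 0.0343) on 1 and 5 counts at day 8, against 0 and 0 counts in ES control, so no fold is given. Fgf2 also shares exon sequence with Nudt6 on the opposite strand, and as the strand setting of the counting is not given in the sources used here its reads are uncertain. Fgf10 had 12.5 and 11.5 CPM at day 8, against 11.8 and 10.4 CPM in ES control, and was not called (log2 fold change 0.11 ± 0.17, adjusted p = 0.573). Fgf16, a ligand of heart and brown fat, had 1 and 0 counts at day 8, against 0 and 0 counts in ES control.

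Of the endocrine ligands, Fgf15, which in the embryo is a ligand of the neural tube and in the adult gut signals to the liver, rose 3.32-fold, to 21.6 and 21.1 CPM at day 8, against 6.77 and 6.08 CPM in ES control (log2 fold change 1.73 ± 0.27, adjusted p = 6.66e-06). Fgf21, a hormone of fasting and cell stress, had 1 and 4 counts at day 8, against 7 and 20 counts in ES control, and was 6.34-fold lower by summed counts (95% counting interval 2.41 to 21.1). Fgf4, Fgf15 and Fgf3 are neighbours on chromosome 7 (build GRCm38.p6, 144861386 to 144865245, 144896532 to 144900953 and 144838612 to 144843348), and at day 8 Fgf15 was higher while Fgf3 and Fgf4 were lower than in ES control. The intracellular FGFs are known mainly from neurons. Fgf12 had 345 and 389 counts at day 8 (13.3 and 12.7 CPM), against 1 and 5 counts in ES control, and was 104-fold higher by summed counts (95% counting interval 47.6 to 285). Fgf13 rose to 23.0 and 19.0 CPM, against 10.5 and 12.3 CPM (log2 fold change 0.88 ± 0.11, adjusted p = 4.34e-07), and Fgf11 to 7.54 and 6.99 CPM, against 2.77 and 2.92 CPM (log2 fold change 1.35 ± 0.22, adjusted p = 1.15e-05). Fgf14 was not called (log2 fold change 0.04 ± 0.34, adjusted p = 0.928), at 2.09 and 1.67 CPM at day 8, against 2.29 and 1.38 CPM in ES control. Neuron markers summed to 3151 to 3217 CPM at day 8, against 381 to 386 CPM in ES control. Neural progenitor markers summed to 781 to 801 CPM, against 181 to 187 CPM. Mesenchyme markers summed to 1415 to 1682 CPM, against 102 to 106 CPM, and endoderm markers to 332 to 336 CPM, against 12.0 to 13.3 CPM. The part of these markers in the FGF values was not tested.

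The receptors changed in opposite directions. Fgfr3, the receptor of neural progenitors and astrocytes, had 82.8 and 75.2 CPM at day 8, against 4.88 and 4.35 CPM in ES control, and was 17.1-fold higher (log2 fold change 4.10 ± 0.15, adjusted p = 1.31e-15). Fgfr2 had 114 and 109 CPM, against 23.8 and 27.4 CPM, and was 4.34-fold higher (log2 fold change 2.12 ± 0.08, adjusted p = 2.17e-15). Fgfr4 had 12.0 and 10.3 CPM, against 5.14 and 6.36 CPM (log2 fold change 0.95 ± 0.16, adjusted p = 2.22e-05). Fgfr1 fell to 146 and 146 CPM, against 225 and 228 CPM (log2 fold change -0.63 ± 0.06, adjusted p = 6.96e-09). None of these groups overlapped, and Fgfr1 stayed the receptor with the highest level per kb at day 8 (15.2 CPM per kb, against 11.1 for Fgfr3 and 11.1 for Fgfr2).

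The carriers moved apart: Fgfbp1 fell to 1.20 and 0.817 CPM at day 8, against 41.0 and 41.2 CPM in ES control (41.2-fold lower, log2 fold change -5.36 ± 0.23, adjusted p = 1.62e-14), and Fgfbp3 rose to 21.9 and 21.7 CPM, against 4.70 and 6.52 CPM (log2 fold change 1.95 ± 0.16, adjusted p = 9.78e-10). All 4 feedback genes with counts fell. Spry4 had 4.57 and 5.29 CPM at day 8, against 19.0 and 15.4 CPM in ES control (log2 fold change -1.80 ± 0.15, adjusted p = 9.7e-10). Spry1 had 16.4 and 19.2 CPM, against 45.4 and 41.9 CPM (log2 fold change -1.29 ± 0.10, adjusted p = 2.74e-10). Spry2 had 24.1 and 22.1 CPM, against 44.1 and 40.4 CPM (log2 fold change -0.87 ± 0.10, adjusted p = 9.02e-08), and Dusp6 38.5 and 41.3 CPM, against 70.1 and 63.4 CPM (log2 fold change -0.74 ± 0.13, adjusted p = 2.8e-05). Every day 8 library of these genes lay below both ES control libraries.

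Some calls of low genes in this comparison were lost when single libraries were left out, which also leaves fewer libraries for the test. Fgf1 was no longer called with limma-voom (adjusted p = 0.0549). Fgf1, Fgf2, Fgf21 and Fgf3 were no longer called without ES control replicate 2 (adjusted p = 0.0794 to 0.152). Fgf1 and Fgf3 were no longer called without day 8 replicate 1 (adjusted p = 0.0536 to 0.0777). Fgf2 was no longer called without ES control replicate 1 (adjusted p = 0.0989). Fgf2 and Fgf3 were no longer called without day 8 replicate 2 (adjusted p = 0.0678 to 0.232). Fgf12 had a log2 fold change of 6.01 without ES control replicate 1 and 8.06 without ES control replicate 2. Fgf21 had a log2 fold change of -1.75 without ES control replicate 2 and -3.69 without day 8 replicate 2. Fgf4 had a log2 fold change of -7.92 without day 8 replicate 1.

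**Figure D3:**
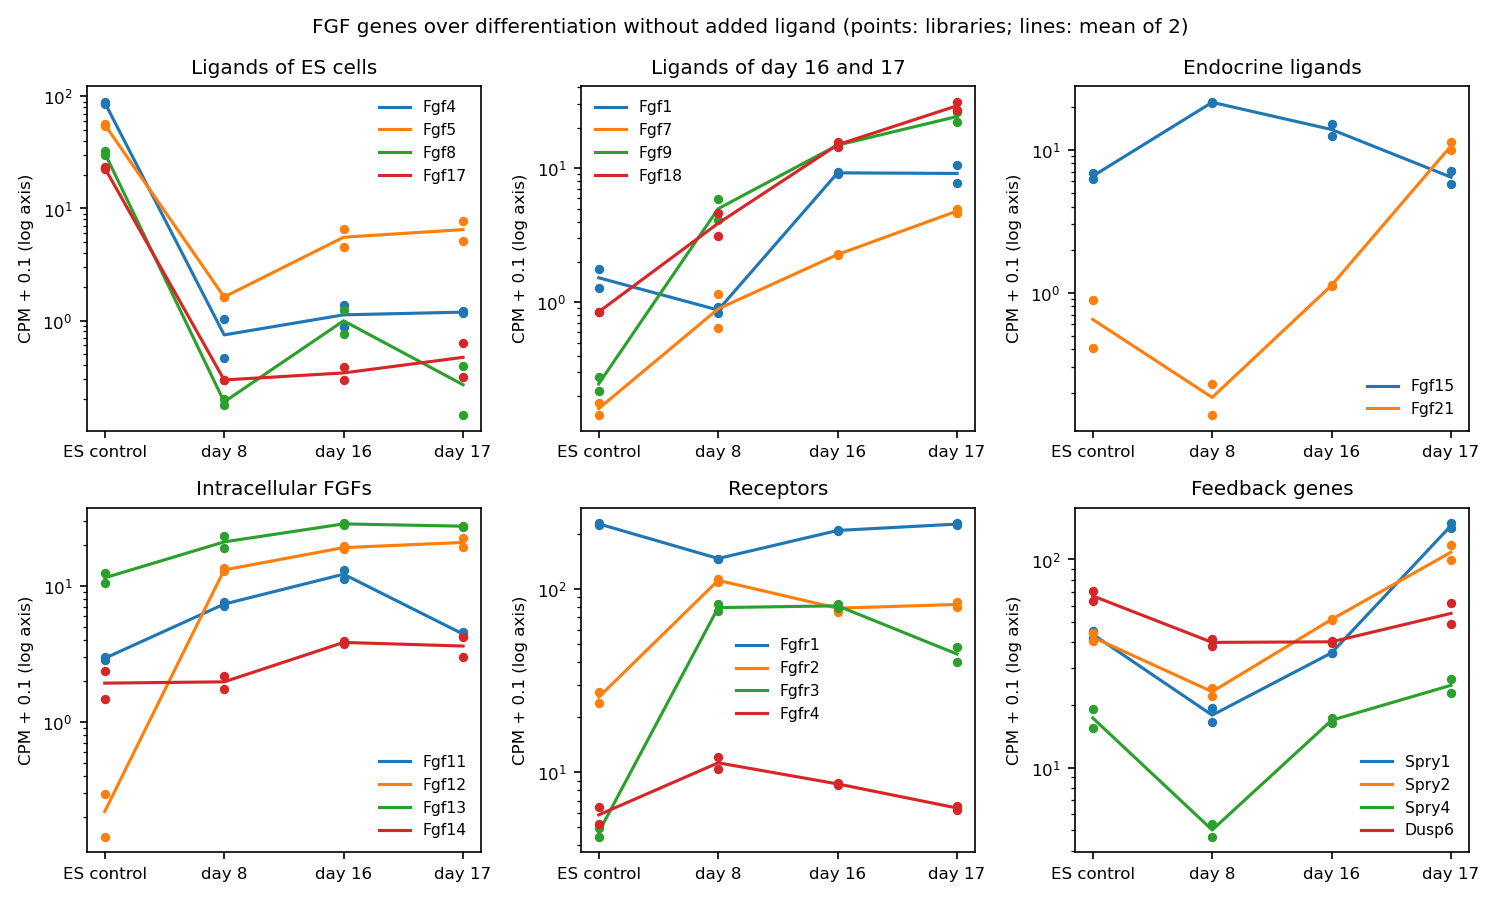
CPM + 0.1 (log axis) of FGF genes by role in ES control and at days 8, 16 and 17 without added ligand (points: libraries, lines: means of 2). The Sprouty genes are lowest at day 8 and highest at day 17, and Fgfr3 rises at day 8 and is lower at day 17 than at day 16.

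From day 8 to day 16, 22 of 29 FGF genes were called, 18 higher and 4 lower, against 61.6% of all genes (29.4% higher and 32.2% lower). The median log2 fold change of the 29 was 0.742, against -0.036 over all genes. Secreted ligands and Sprouty genes made up most of the rises.

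Fgf1 had 9.30 and 8.95 CPM at day 16, against 0.735 and 0.817 CPM at day 8, and was 11.6-fold higher (log2 fold change 3.54 ± 0.24, adjusted p = 1.54e-10). Fgf18 had 14.2 and 15.5 CPM, against 4.53 and 3.04 CPM (log2 fold change 1.99 ± 0.21, adjusted p = 1.27e-07), and Fgf9 14.5 and 14.9 CPM, against 4.02 and 5.75 CPM (log2 fold change 1.58 ± 0.19, adjusted p = 6.7e-07). In all 3 the groups did not overlap. Fgf5 rose to 6.42 and 4.46 CPM at day 16, against 1.51 and 1.53 CPM at day 8 (log2 fold change 1.81 ± 0.23, adjusted p = 1.1e-06), a level still far below ES control. Fgf16 had 44 and 57 counts at day 16, against 1 and 0 counts at day 8, and was 94.1-fold higher by summed counts (95% counting interval 16.5 to 3752). Fgf2 had 44 and 78 counts, against 1 and 5 counts, and was 18.9-fold higher by summed counts (95% counting interval 8.45 to 52.6), with the strand limit named above. Fgf8 had 16 and 41 counts at day 16, against 2 and 3 counts at day 8, and was 10.6-fold higher by summed counts (95% counting interval 4.29 to 34.0). Among marker lists, the 6 mesenchyme markers summed to 9623 to 11054 CPM at day 16, against 1415 to 1682 CPM at day 8, and the 5 astrocyte markers to 845 to 878 CPM, against 57.0 to 59.7 CPM. The 7 neuron markers summed to 1617 to 1635 CPM, against 3151 to 3217 CPM, and the 4 mesoderm markers to 9.28 to 16.2 CPM, against 0.947 to 1.20 CPM. The 5 neural progenitor markers summed to 675 to 676 CPM at day 16, against 781 to 801 CPM at day 8. The 5 endoderm markers summed to 222 CPM in both libraries of day 16, against 332 to 336 CPM at day 8. The 8 pluripotency markers overlapped, at 162 to 183 CPM at day 16 and 172 to 183 CPM at day 8, and the part of these markers in the FGF values was not tested. Fgf7 rose to 2.14 and 2.20 CPM at day 16, against 0.542 and 1.04 CPM at day 8 (log2 fold change 1.43 ± 0.39, adjusted p = 0.00369). Fgf3 had 1.19 and 0.771 CPM, against 0.890 and 0.947 CPM, and Fgf4 1.28 and 0.771 CPM, against 0.928 and 0.359 CPM. Fgf10 had 15.3 and 13.6 CPM, against 12.5 and 11.5 CPM, and Fgf17 0.288 and 0.193 CPM, against 0.193 and 0.196 CPM. These 4 were not called (log2 fold changes 0.06, 0.65, 0.27 and 0.24).

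Fgf21 had 25 and 37 counts at day 16, against 1 and 4 counts at day 8, and was 11.6-fold higher by summed counts (95% counting interval 4.69 to 36.8). Fgf15 moved the other way, at 15.1 and 12.4 CPM at day 16, against 21.6 and 21.1 CPM at day 8 (log2 fold change -0.64 ± 0.25, adjusted p = 0.0308). All 4 intracellular FGFs rose, Fgf14 most, to 3.87 and 3.63 CPM at day 16, against 2.09 and 1.67 CPM at day 8 (log2 fold change 1.00 ± 0.31, adjusted p = 0.00811), then Fgf11 (log2 fold change 0.74 ± 0.19, adjusted p = 0.00205), Fgf12 (log2 fold change 0.55 ± 0.18, adjusted p = 0.0122) and Fgf13 (log2 fold change 0.44 ± 0.10, adjusted p = 0.000861). Fgfr1 rose to 207 and 209.8 CPM at day 16, against 146 and 146 CPM at day 8 (log2 fold change 0.51 ± 0.06, adjusted p = 4.18e-07). Fgfr2 fell to 82.0 and 74.9 CPM, against 114 and 109 CPM (log2 fold change -0.51 ± 0.07, adjusted p = 4.99e-06), and Fgfr4 to 8.64 and 8.43 CPM, against 12.0 and 10.3 CPM (log2 fold change -0.39 ± 0.15, adjusted p = 0.0367). Fgfr3 had 82.8 and 78.8 CPM at day 16, against 82.8 and 75.2 CPM at day 8, and its groups overlapped (log2 fold change 0.03 ± 0.11, adjusted p = 0.817). Fgfbp1 rose 10.7-fold, to 11.5 and 10.1 CPM at day 16, against 1.20 and 0.817 CPM at day 8 (log2 fold change 3.42 ± 0.26, adjusted p = 7.72e-10), and Fgfbp3 fell (log2 fold change -0.50 ± 0.14, adjusted p = 0.00539). Spry4 rose 3.39-fold (log2 fold change 1.76 ± 0.15, adjusted p = 4.81e-09), Spry2 2.23-fold (log2 fold change 1.16 ± 0.10, adjusted p = 4.02e-09) and Spry1 1.99-fold (log2 fold change 0.99 ± 0.10, adjusted p = 5.09e-08), while Dusp6 was not called (log2 fold change 0.01 ± 0.13, adjusted p = 0.969).

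Some of these calls were lost under other settings. Fgf12 and Fgfr4 were no longer called without day 16 replicate 1 (adjusted p = 0.0723 to 0.0734). Fgf12, Fgf13, Fgf14 and Fgf15 were no longer called without day 8 replicate 2 (adjusted p = 0.0548 to 0.0902). Fgf15 and Fgfr4 were no longer called with the DESeq2 Wald test (adjusted p = 0.103 to 0.18). Fgf15, Fgfbp3 and Fgfr4 were no longer called without day 16 replicate 2 (adjusted p = 0.106 to 0.174). Fgf15, Fgf7 and Fgfr4 were no longer called without day 8 replicate 1 (adjusted p = 0.0663 to 0.205). Fgfr4 was no longer called with DESeq2 size factors (adjusted p = 0.0607). Fgf16 had a log2 fold change of 5.25 without day 8 replicate 2. Without day 8 replicate 1 the remaining day 8 library had 0 counts of Fgf16, so no fold is given. Fgf2 had a log2 fold change of 3.54 without day 8 replicate 1 and 5.49 without day 8 replicate 2. Fgf21 had a log2 fold change of 4.54 without day 8 replicate 2.

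From day 16 to day 17, 16 of 29 FGF genes were called, 11 higher and 5 lower, against 56.2% of all genes (26.8% higher and 29.5% lower), so the share of FGF genes was near that of all genes. Fgf21, Fgf16, Fgf18, Spry1 and Spry2 were among the rises, and Fgf11, Fgf15 and Fgfr3 fell. Day and the handling of reads aligned more than once cannot be told apart in this comparison.

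Spry1 had 149 and 141 CPM at day 17, against 35.6 and 35.4 CPM at day 16, and was 4.09-fold higher (log2 fold change 2.03 ± 0.09, adjusted p = 5.21e-13). Spry2 had 118 and 99.0 CPM, against 51.9 and 51.0 CPM (log2 fold change 1.08 ± 0.09, adjusted p = 4.37e-09), and Spry4 26.7 and 22.9 CPM, against 17.2 and 16.4 CPM (log2 fold change 0.57 ± 0.13, adjusted p = 0.00112). The groups of all 3 Sprouty genes did not overlap. Dusp6 rose to 61.4 and 48.6 CPM at day 17, against 40.7 and 39.6 CPM at day 16 (log2 fold change 0.46 ± 0.13, adjusted p = 0.00509). Fgf21 had 11.2 and 9.86 CPM at day 17, against 1.03 and 1.02 CPM at day 16, and was 10.2-fold higher (log2 fold change 3.36 ± 0.35, adjusted p = 7.06e-08). Both day 17 libraries of Fgf21 lay above all other libraries of the study, which reached 1.64 CPM at most.

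The 250 bases before the RefSeq start of Fgf21 are shown because this gene had the largest rise of the FGF genes at day 17. They lie on chromosome 7 on the minus strand (chr7:45615491-45615740, minus strand, build GRCm38.p6), and the capitals mark a match to TGATGCAA on the opposite strand, the core of the amino acid response element that the stress factor ATF4 binds, 139 bases before the start, and TATAAA 28 bases before the start.
Fgf21: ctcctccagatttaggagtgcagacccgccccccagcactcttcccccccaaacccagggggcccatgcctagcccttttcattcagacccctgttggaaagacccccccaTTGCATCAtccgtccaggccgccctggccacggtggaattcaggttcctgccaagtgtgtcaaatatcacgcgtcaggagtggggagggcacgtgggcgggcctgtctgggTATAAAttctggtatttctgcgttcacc
TGATGCAA occurred on either strand in the same window of 0.92% of 27025 symbols, and among the 24 FGF genes searched in Fgf21 alone. TATAAA was in Fgf21 and Fgfbp3 among the 24, and AGGTCA was not in the Fgf21 window.

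Among secreted ligands, Fgf16 rose to 6.87 and 5.89 CPM at day 17, against 1.81 and 1.57 CPM at day 16 (log2 fold change 1.92 ± 0.38, adjusted p = 0.000257), and Fgf18 to 27.0 and 31.2 CPM, against 14.2 and 15.5 CPM (log2 fold change 0.97 ± 0.19, adjusted p = 0.000174). Fgf9 rose to 26.3 and 22.0 CPM, against 14.5 and 14.9 CPM (log2 fold change 0.72 ± 0.18, adjusted p = 0.00168). Fgf7 rose to 4.82 and 4.55 CPM, against 2.14 and 2.20 CPM (log2 fold change 1.11 ± 0.34, adjusted p = 0.00895), and Fgf10 to 21.3 and 18.9 CPM, against 15.3 and 13.6 CPM (log2 fold change 0.48 ± 0.17, adjusted p = 0.0181). The 5 ligands did not overlap between the days, a description of 2 libraries a day without a share over all genes. Fgf8 had 1 and 5 counts at day 17, against 16 and 41 counts at day 16, and was 6.36-fold lower by summed counts (95% counting interval 2.75 to 18.1). Fgf15 fell to 5.63 and 6.998 CPM at day 17, against 15.1 and 12.4 CPM at day 16 (log2 fold change -1.12 ± 0.28, adjusted p = 0.00174). Fgf11 fell to 4.48 and 4.20 CPM, against 11.2 and 13.0 CPM (log2 fold change -1.48 ± 0.21, adjusted p = 3.71e-06), while Fgf12, Fgf13 and Fgf14 were not called (log2 fold changes 0.13, -0.06 and -0.11). At day 17 Fgf12 had 22.4 and 19.1 CPM, Fgf13 27.2 and 27.6 CPM and Fgf14 2.90 and 4.14 CPM. Among ligands not called, Fgf1 had 10.4 and 7.70 CPM, Fgf2 1.41 and 1.87 CPM, Fgf3 0.982 and 0.175 CPM and Fgf17 0.213 and 0.525 CPM at day 17. Fgfr3 fell to 48.2 and 39.9 CPM at day 17, against 82.8 and 78.8 CPM at day 16 (log2 fold change -0.87 ± 0.11, adjusted p = 1.96e-06), and Fgfr4 fell to 6.15 and 6.42 CPM, against 8.64 and 8.43 CPM (log2 fold change -0.44 ± 0.17, adjusted p = 0.0285). Fgfr1 and Fgfr2 were not called (log2 fold changes 0.12 and 0.07), with Fgfr2 at 84.6 and 79.8 CPM at day 17, against 82.0 and 74.9 CPM at day 16, and Fgfbp1 rose (log2 fold change 0.50 ± 0.17, adjusted p = 0.0178). Astrocyte markers summed to 2636 to 2968 CPM at day 17, against 845 to 878 CPM at day 16, and neural progenitor markers to 367 to 406 CPM, against 675 to 676 CPM. Gfap made up most of the astrocyte sum (2178 and 2529.9 CPM at day 17, against 562 and 589 CPM at day 16), while Aldh1l1 had 47.9 and 43.9 CPM, against 73.2 and 84.8 CPM, and S100b 1.75 and 0.583 CPM, against 3.79 and 4.29 CPM. The part of these markers in the FGF values was not tested.

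Some calls at day 17 were lost when 1 library was left out, which also leaves fewer libraries for the test. Dusp6, Fgf10, Fgf8, Fgfbp1 and Fgfr4 were no longer called without day 17 replicate 1 (adjusted p = 0.0613 to 0.214). Fgf10, Fgfbp1 and Fgfr4 were no longer called without day 16 replicate 2 (adjusted p = 0.0815 to 0.133). Fgfr4 was no longer called without day 16 replicate 1 or without day 17 replicate 2 (adjusted p = 0.0703 to 0.102). Fgf8 had a log2 fold change of -1.65 without day 17 replicate 1 and -4.30 without day 17 replicate 2.

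With GW3965 at day 16, 15 of 29 FGF genes were called, 4 higher and 11 lower, against 31.7% of all genes (13.0% higher and 18.7% lower). The median log2 fold change of the 29 was -0.302, against -0.032 over all genes. Fgf15, Fgf8, Fgf5 and Fgfr1 fell, and Fgf12, Fgf13 and both carriers rose.

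Fgf15 had 3.36 and 1.10 CPM at day 16 with GW3965, against 15.1 and 12.4 CPM at day 16, and was 6.11-fold lower (log2 fold change -2.61 ± 0.30, adjusted p = 1.91e-06). Replicate 2 with GW3965 lay lowest, and the log2 fold change was -3.62 and -2.02 when replicate 1 or 2 of that group was left out. Fgf5 had 1.69 and 1.59 CPM, against 6.42 and 4.46 CPM, and was 3.24-fold lower (log2 fold change -1.70 ± 0.22, adjusted p = 7.41e-06), and it was -1.74 and -1.65 when replicate 1 or 2 was left out. Fgf8 had 6 and 1 counts, against 16 and 41 counts, and was 8.83-fold lower by summed counts (95% counting interval 4.02 to 22.9). Its log2 fold change was -3.07, and -4.71 and -2.33 when replicate 1 or 2 with GW3965 was left out. Among the other secreted ligands Fgf4 fell to 0.575 and 0.245 CPM with GW3965, against 1.28 and 0.771 CPM (log2 fold change -1.24 ± 0.43, adjusted p = 0.033). Fgf2 fell to 1.06 and 0.490 CPM, against 1.81 and 2.15 CPM (log2 fold change -1.35 ± 0.42, adjusted p = 0.0207). When replicate 1 or 2 with GW3965 was left out, these values were -1.97 and -0.76 for Fgf4 and -2.00 and -0.90 for Fgf2. Fgf1 fell to 6.41 and 5.30 CPM, against 9.30 and 8.95 CPM (log2 fold change -0.64 ± 0.18, adjusted p = 0.0101), and Fgf18 to 10.3 and 9.58 CPM, against 14.2 and 15.5 CPM (log2 fold change -0.58 ± 0.19, adjusted p = 0.0257), with -0.78 and -0.51 for Fgf1 and -0.63 and -0.53 for Fgf18 when replicate 1 or 2 was left out. Fgf7 with 2.36 and 1.81 CPM, Fgf9 with 13.1 and 9.06 CPM, Fgf10 with 13.9 and 9.67 CPM and Fgf16 with 0.756 and 1.44 CPM under GW3965 were not called (log2 fold changes -0.06, -0.41, -0.29 and -0.61). Leaving out replicate 1 or 2 with GW3965 gave -0.70 and -0.17 for Fgf9 and -0.57 and -0.05 for Fgf10, and both were called as lower without replicate 1 (adjusted p = 0.0121 and 0.025). Nor were Fgf3 with 0.877 and 0.827 CPM, Fgf17 with 0.393 and 0.551 CPM and Fgf21 with 0.666 and 0.796 CPM (-0.17, 1.01 and -0.48).

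Fgf12 had 39.5 and 35.3 CPM at day 16 with GW3965, against 19.6 and 18.5 CPM at day 16, and was 1.96-fold higher (log2 fold change 0.97 ± 0.17, adjusted p = 0.00021). Fgf13 had 49.6 and 53.0 CPM, against 28.9 and 28.1 CPM, and was 1.80-fold higher (log2 fold change 0.85 ± 0.10, adjusted p = 2.11e-06). When replicate 1 or 2 with GW3965 was left out, the log2 fold changes were 0.89 and 1.05 for Fgf12 and 0.90 and 0.80 for Fgf13, so both sodium channel partners stayed higher, while Fgf11 with 12.6 and 8.48 CPM and Fgf14 with 5.29 and 5.26 CPM were not called (-0.21 and 0.50). Fgfr1 fell to 126 and 120.2 CPM, against 207 and 209.8 CPM (log2 fold change -0.76 ± 0.06, adjusted p = 3.97e-08), and -0.79 and -0.72 when replicate 1 or 2 was left out, while Fgfr2 with 75.8 and 70.2 CPM, Fgfr3 with 91.3 and 84.5 CPM and Fgfr4 with 7.35 and 5.85 CPM were not called (-0.10, 0.12 and -0.37). Fgfr4 had -0.54 and -0.21 when replicate 1 or 2 was left out and was called as lower without replicate 1 (adjusted p = 0.0416). Fgfbp1 had 18.6 and 23.1 CPM, against 11.5 and 10.1 CPM (log2 fold change 0.96 ± 0.16, adjusted p = 0.000121), and Fgfbp3 28.5 and 31.6 CPM, against 17.5 and 13.6 CPM (log2 fold change 0.96 ± 0.14, adjusted p = 3.25e-05). Both carriers stayed higher when either replicate with GW3965 was left out (1.12 and 0.80 for Fgfbp1 and 1.04 and 0.89 for Fgfbp3). Spry4 fell to 9.77 and 10.6 CPM, against 17.2 and 16.4 CPM (log2 fold change -0.72 ± 0.14, adjusted p = 0.00043), Spry2 fell to 40.5 and 41.1 CPM, against 51.9 and 51.0 CPM (log2 fold change -0.33 ± 0.09, adjusted p = 0.00885), and Spry1 to 31.1 and 26.5 CPM, against 35.6 and 35.4 CPM (log2 fold change -0.30 ± 0.09, adjusted p = 0.0196). When replicate 1 or 2 with GW3965 was left out, the log2 fold changes were -0.66 and -0.78 for Spry4, -0.32 and -0.34 for Spry2 and -0.42 and -0.19 for Spry1. Dusp6 had 28.6 and 40.0 CPM, against 40.7 and 39.6 CPM, and was not called (log2 fold change -0.23 ± 0.13, adjusted p = 0.204). Its log2 fold change was 0.001 without replicate 1 with GW3965 and -0.49 without replicate 2, where it was called (adjusted p = 0.0123).

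Markers of several cell types moved with GW3965 at day 16. Neuron markers (7 of 7 at 1 CPM or more in both groups) summed to 2437 to 2637 CPM with GW3965, against 1617 to 1635 CPM at day 16. Mesenchyme markers (6 of 6) summed to 4469 to 5646 CPM, against 9623 to 11054 CPM, and astrocyte markers (5 of 5) to 356 to 496 CPM, against 845 to 878 CPM. The pluripotency markers summed to 114 to 126 CPM, against 162 to 183 CPM, with 6 and 8 of 8 at 1 CPM or more, and the 4 mesoderm markers to 0.459 to 0.817 CPM, against 9.28 to 16.2 CPM, with T at 0.242 and 0 CPM, against 13.2 and 7.05 CPM. Neural progenitor markers (5 of 5) summed to 519 to 549 CPM with GW3965, against 675 to 676 CPM at day 16. Endoderm markers (5 of 5) summed to 282 to 298 CPM, against 222 CPM in both libraries of day 16. Microglia and leukocyte markers were near 0 in both groups. The part of these markers in the FGF values was not tested.

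Several of the smaller calls at day 16 with GW3965 were lost under other settings. Fgf1, Fgf18, Fgf2, Fgf4, Spry1 and Spry2 were no longer called without day 16 replicate 1 (adjusted p = 0.0527 to 0.231). Fgf1, Fgf18, Fgf2, Fgf4 and Spry1 were no longer called without day 16 GW3965 replicate 2 (adjusted p = 0.11 to 0.278). Fgf18 was no longer called without the day 17 libraries (adjusted p = 0.0696). Fgf18, Fgf2 and Spry1 were no longer called without day 16 replicate 2 (adjusted p = 0.0813 to 0.152). Fgf2 was no longer called with the DESeq2 Wald test (adjusted p = 0.0628). Fgf4 was no longer called with limma-voom (adjusted p = 0.071). Fgf4 and Spry1 were no longer called in a fit of only the groups compared (adjusted p = 0.0635 to 0.107). Fgf2 had a log2 fold change of -2.00 without day 16 GW3965 replicate 1. Fgf4 had a log2 fold change of -1.97 without day 16 GW3965 replicate 1.

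**Figure D4:**
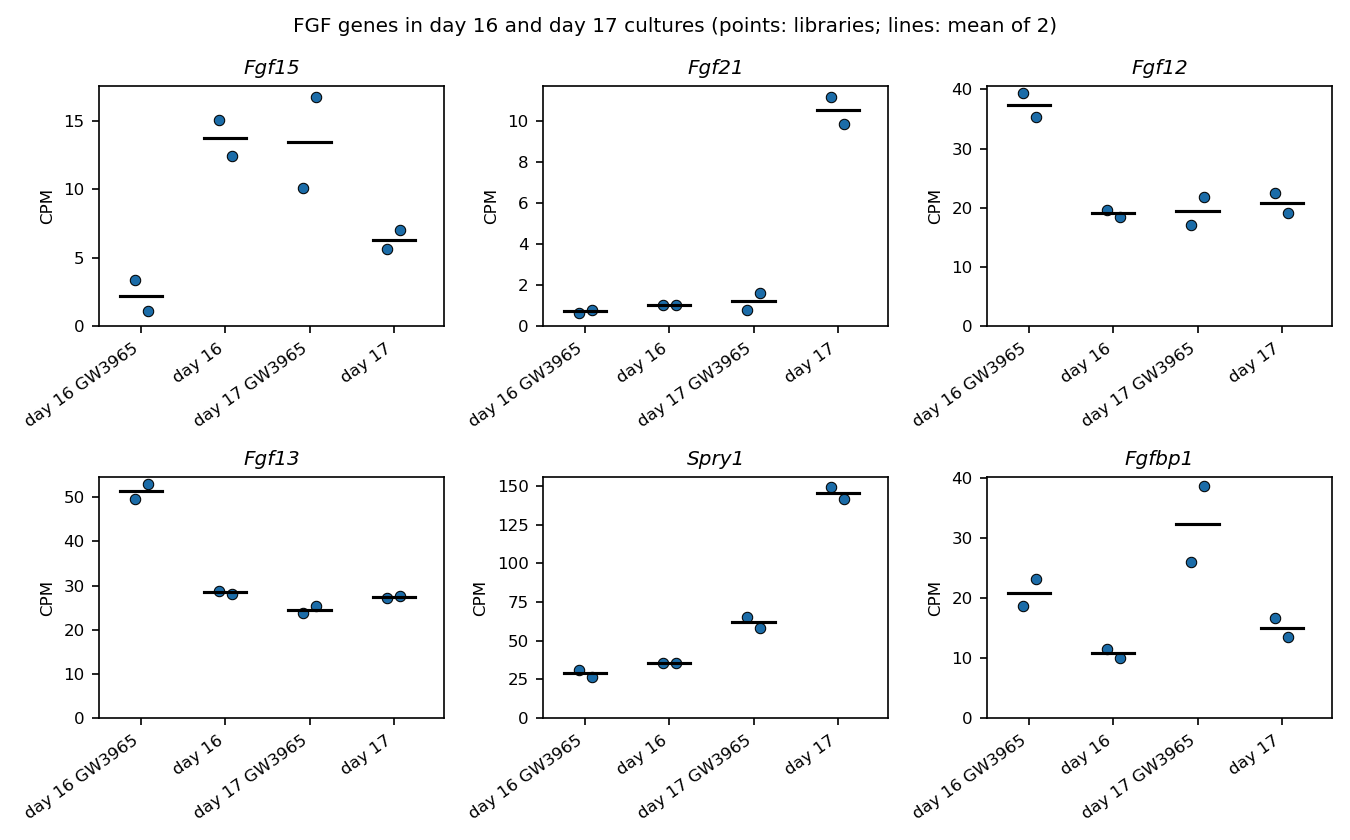
CPM of 6 FGF genes at day 16 with GW3965, day 16, day 17 with GW3965 and day 17 (points: libraries, lines: means of 2). Fgf15 is lowest at day 16 with GW3965, and Fgf21 and Spry1 are highest at day 17 without it.

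With GW3965 at day 17, 14 of 29 FGF genes were called, 7 higher and 7 lower, against 35.2% of all genes (17.2% higher and 18% lower). Fgf21 and Spry1 fell most clearly and the carriers rose. These values and those of day 17 against day 16 share the day 17 control libraries, so the 2 sets of values stand side by side and are not independent.

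Fgf21 had 0.804 and 1.64 CPM at day 17 with GW3965, against 11.2 and 9.86 CPM at day 17, and was 8.54-fold lower (log2 fold change -3.09 ± 0.35, adjusted p = 1.23e-06). The groups did not overlap, and the log2 fold change was -3.71 without day 17 GW3965 replicate 2. Spry1 had 65.3 and 58.1 CPM, against 149 and 141 CPM, and was 2.36-fold lower (log2 fold change -1.24 ± 0.09, adjusted p = 3.83e-09). Spry2 had 71.1 and 72.0 CPM, against 118 and 99.0 CPM (log2 fold change -0.60 ± 0.09, adjusted p = 3.59e-05), and Spry4 16.6 and 21.9 CPM, against 26.7 and 22.9 CPM (log2 fold change -0.37 ± 0.13, adjusted p = 0.0386). All libraries of these 3 genes with GW3965 lay below both controls. Dusp6 had 42.8 and 48.6 CPM, against 61.4 and 48.6 CPM, and was not called (log2 fold change -0.27 ± 0.13, adjusted p = 0.116).

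Fgf15 had 10.1 and 16.7 CPM at day 17 with GW3965, against 5.63 and 6.998 CPM at day 17, and was 2.14-fold higher (log2 fold change 1.10 ± 0.28, adjusted p = 0.00477), whereas it was lower with GW3965 at day 16. Fgf4 had 3.44 and 1.98 CPM, against 1.07 and 1.11 CPM, and was 2.47-fold higher (log2 fold change 1.31 ± 0.33, adjusted p = 0.00437). Fgf16 had 1.97 and 3.20 CPM, against 6.87 and 5.89 CPM (log2 fold change -1.30 ± 0.37, adjusted p = 0.0103), and Fgf5 4.20 and 3.07 CPM, against 7.68 and 5.07 CPM (log2 fold change -0.84 ± 0.21, adjusted p = 0.00365). Fgf16 and Fgf5 thus fell and did not overlap with their controls, and Fgf1 rose to 13.8 and 14.8 CPM, against 10.4 and 7.70 CPM (log2 fold change 0.66 ± 0.18, adjusted p = 0.00754). Fgf11 rose to 7.32 and 6.06 CPM, against 4.48 and 4.20 CPM (log2 fold change 0.62 ± 0.22, adjusted p = 0.0312). Fgf12 with 17.1 and 21.8 CPM, Fgf13 with 23.7 and 25.4 CPM and Fgf14 with 3.35 and 4.92 CPM under GW3965 were not called (log2 fold changes -0.10, -0.16 and 0.25), so the higher Fgf12 and Fgf13 of day 16 with GW3965 have no counterpart that passed the test at day 17. Other ligands not called were Fgf2 with 2.68 and 2.35 CPM, Fgf3 with 0.581 and 0.505 CPM, Fgf7 with 3.66 and 3.15 CPM, Fgf8 with 0.313 and 0.505 CPM and Fgf9 with 18.3 and 22.8 CPM under GW3965. Fgf10 with 16.1 and 20.9 CPM, Fgf17 with 0.357 and 0.210 CPM and Fgf18 with 25.8 and 24.2 CPM were likewise not called. Fgfr3 had 70.5 and 77.5 CPM, against 48.2 and 39.9 CPM, and was 1.67-fold higher (log2 fold change 0.74 ± 0.12, adjusted p = 5.35e-05). Fgfr1 fell (log2 fold change -0.31 ± 0.06, adjusted p = 0.000494), to 189 and 176 CPM, against 223 and 228 CPM, and Fgfr2 with 73.8 and 77.8 CPM and Fgfr4 with 6.21 and 7.32 CPM were not called (-0.12 and 0.11). Fgfbp1 had 25.9 and 38.6 CPM, against 16.6 and 13.5 CPM (log2 fold change 1.09 ± 0.16, adjusted p = 2.69e-05), and Fgfbp3 20.6 and 24.2 CPM, against 13.8 and 10.7 CPM (log2 fold change 0.86 ± 0.15, adjusted p = 0.000217). Both carriers were therefore higher with GW3965 at both culture days.

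Astrocyte markers summed to 1642 to 2155 CPM at day 17 with GW3965, against 2636 to 2968 CPM at day 17 (5 of 5 at 1 CPM or more in both groups). Neural progenitor markers (5 of 5) summed to 486 to 604 CPM, against 367 to 406 CPM, and neuron markers (7 of 7) to 1473 to 1595 CPM, against 1249 to 1297 CPM. Tubb3 was the largest part of the neuron difference (287 and 339 CPM, against 177 and 152 CPM), and Snap25 (53.4 and 63.5 CPM, against 71.9 and 73.8 CPM), Syt1 (76.8 and 76.6 CPM, against 79.3 and 90.5 CPM) and Rbfox3 (21.7 and 18.5 CPM, against 27.4 and 24.3 CPM) lay lower with GW3965. Of the astrocyte markers S100b lay higher (6.56 and 6.98 CPM, against 1.75 and 0.583 CPM). The part of these markers in the FGF values was not tested. Fgf1 and Fgf11 were no longer called without day 17 replicate 2 (adjusted p = 0.114 to 0.129). Fgf1, Fgf15 and Fgf5 were no longer called without day 17 GW3965 replicate 2 (adjusted p = 0.055 to 0.115). Fgf11 was no longer called with limma-voom (adjusted p = 0.0756). Fgf11, Fgf15, Fgf16, Fgf5 and Spry4 were no longer called without day 17 replicate 1 (adjusted p = 0.0611 to 0.293). Fgf11, Fgf16, Fgf4 and Spry4 were no longer called without day 17 GW3965 replicate 1 (adjusted p = 0.0967 to 0.398). Spry4 was no longer called in a fit of only the groups compared (adjusted p = 0.0635).

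**Figure D5:**
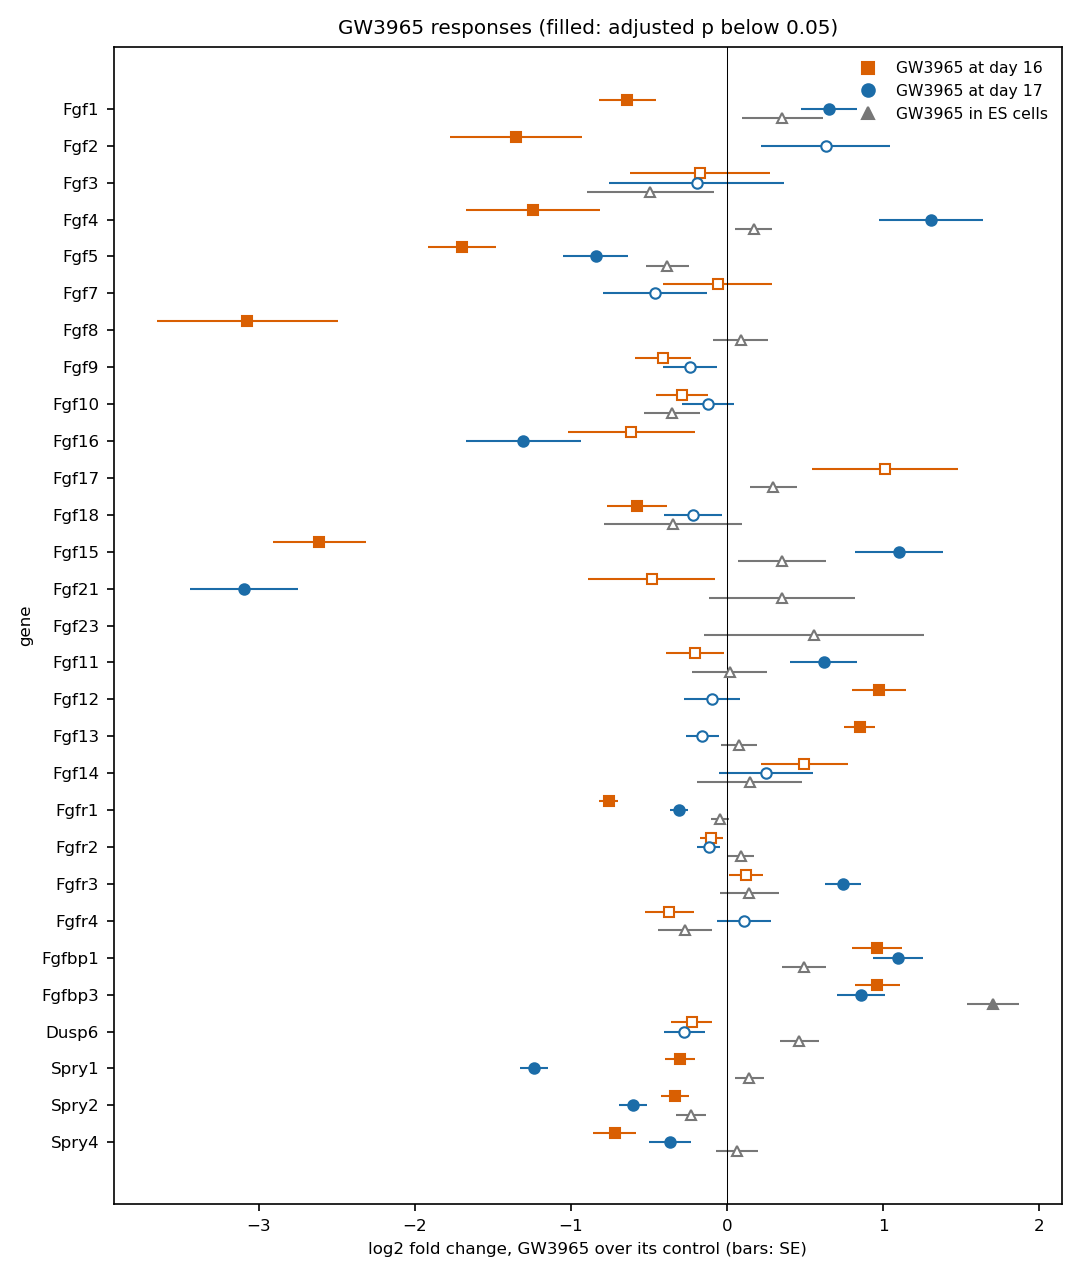
Log2 fold change of GW3965 over its control at day 16, at day 17 and in ES cells for the 29 tested FGF genes, with standard errors as bars (filled: adjusted p below 0.05). Points where neither group reached 20 counts were left out (9 points). Fgf15 lies on opposite sides of 0 at days 16 and 17, and Fgfbp3 lies above 0 in all 3 settings.

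The responses to GW3965 were also tested against each other. Between day 17 and day 16, 13 of 29 FGF genes differed, 9 with the higher response at day 17 and 4 with the lower, against 37.0% of all genes (20% higher and 17.0% lower). By fitted size Fgf8 (difference 4.51 ± 0.99, adjusted p = 0.00123) and Fgf15 (difference 3.71 ± 0.41, adjusted p = 9.36e-07) came first, where the value is the log2 response at day 17 minus that at day 16. With single libraries left out, the difference of Fgf8, which rests on a few counts, was 3.56 to 6.21 and that of Fgf15 3.12 to 4.72. Between cultures and ES cells, 11 FGF genes differed at day 16, 1 with the higher response there and 10 with the lower, against 14.8% of all genes (4.86% higher and 9.89% lower). At day 17 the count was 6, 1 and 5, against 18.2% of all genes (8.59% higher and 9.65% lower). Fgfbp3 rose with GW3965 in all 3 settings, but its response was smaller at day 16 (difference -0.74 ± 0.22, adjusted p = 0.0274) and at day 17 (difference -0.84 ± 0.23, adjusted p = 0.0133) than in ES cells. The Fgfbp1 response did not differ detectably between the culture days (difference 0.13 ± 0.23, adjusted p = 0.693).

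Other genes of the pathway were taken from 3 lists: 19 receptor adaptors and kinases (18 in the data and tested), 13 ERK targets and inhibitors and 20 co-receptors and heparan sulfate genes. These lists were put together with results of these data known. In ES cells none of them held a gene called by edgeR with LG268 or with GW3965 alone. At an unadjusted p below 0.05 with LG268 there were 3 higher and 3 lower ERK targets, 3 higher adaptors and kinases and 2 lower co-receptors. With GW3965 there were 1 higher and 1 lower ERK target, 2 lower adaptors and kinases and 2 higher co-receptors at that threshold. The share of all genes at an unadjusted p below 0.05 was not counted, so these counts are not read as many or few. With both ligands 2 adaptors and kinases were higher and 2 lower, 1 ERK target was higher and 1 lower, and 2 co-receptors were lower, against 4.83% higher and 6.47% lower over all genes. Etv1, a transcription factor that ERK signalling induces, had 18.8 and 15.9 CPM with both ligands, against 9.01 and 11.3 CPM in ES control (log2 fold change 0.76 ± 0.16, adjusted p = 0.00411), and Dusp4, another ERK phosphatase, fell (log2 fold change -0.50 ± 0.12, adjusted p = 0.0127). Sdc3 (log2 fold change -0.60 ± 0.10, adjusted p = 0.000494) and Gpc1 (log2 fold change -0.42 ± 0.08, adjusted p = 0.00217), which carry heparan sulfate, fell, as did the adaptor Grb2 (log2 fold change -0.29 ± 0.06, adjusted p = 0.00396) and the kinase Map2k2 (log2 fold change -0.40 ± 0.12, adjusted p = 0.0394), while the kinase Braf rose (log2 fold change 0.28 ± 0.07, adjusted p = 0.0102). The remaining call was Sos1, an activator of RAS, which was higher (0.22).

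At day 8 the ERK targets had 4 higher and 8 lower members of 13 against ES control, against 39.7% higher and 39.1% lower over all genes, with a median log2 fold change of -0.375, against 0.000 over all genes. Etv5, a transcription factor induced by FGF signalling, had 15.4 and 19.1 CPM at day 8, against 287 and 265 CPM in ES control (15.9-fold lower, log2 fold change -3.99 ± 0.09, adjusted p = 2.12e-18). Il17rd, an inhibitor of FGF receptors also called Sef, was 7.01-fold lower (log2 fold change -2.81 ± 0.10, adjusted p = 1.17e-15), and Spred3, a relative of the Sproutys, was higher (log2 fold change 2.69 ± 0.13, adjusted p = 2.05e-13). The co-receptors had 12 higher and 3 lower of 20 (median 0.351). Klb, the co-receptor for Fgf15 and Fgf21, had 7.47 and 8.23 CPM at day 8, against 2 and 0 counts in ES control. Flrt2 had 101 and 126 CPM, against 2.86 and 2.02 CPM (log2 fold change 5.55 ± 0.17, adjusted p = 7.75e-17), and Flrt3 115 and 128 CPM, against 9.85 and 8.65 CPM (log2 fold change 3.72 ± 0.08, adjusted p = 1.41e-18); both are membrane proteins that bind FGF receptors. Of the adaptors and kinases, 5 were higher and 10 lower of 18, led by Map2k1 (-1.77), Shc1 (-1.76) and Gab1 (-1.60), given as log2 fold changes.

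At day 16 against day 8, 6 ERK targets were higher and 3 lower of 13, against 29.4% higher and 32.2% lower over all genes, with Dusp4 (log2 fold change -2.00 ± 0.12, adjusted p = 3.05e-11) lower and Ier3 (log2 fold change 1.56 ± 0.18, adjusted p = 3.17e-07) and Etv5 (log2 fold change 1.33 ± 0.09, adjusted p = 3.32e-10) higher. Co-receptors had 12 higher and 2 lower, led by Gpc4 (log2 fold change 1.86 ± 0.08, adjusted p = 5.69e-13), Sulf1, which trims sulfate groups from heparan sulfate (log2 fold change 1.48 ± 0.11, adjusted p = 6.36e-10), and Sdc2 (log2 fold change 1.01 ± 0.07, adjusted p = 4.12e-10). Adaptors and kinases had 3 higher and 9 lower members, with a median log2 fold change of -0.153, against -0.036 over all genes. Shc1 (0.77) and Map2k1 (0.49), given on the log2 scale, were among the higher ones. At day 17 against day 16, 9 of 13 ERK targets were higher and none was lower by edgeR's test, and the counts were the same at an unadjusted p below 0.05 (median 0.421, against -0.023 over all genes, of which 26.8% were higher and 29.5% lower). Egr1, an immediate early gene that ERK signalling induces, had 486 and 506 CPM at day 17, against 65.6 and 67.0 CPM at day 16 (7.47-fold higher, log2 fold change 2.90 ± 0.10, adjusted p = 6.94e-15). Dusp5 had 10.7 and 6.47 CPM, against 2.84 and 2.59 CPM (log2 fold change 1.68 ± 0.24, adjusted p = 5.25e-06), and Fosl1 rose (log2 fold change 1.34 ± 0.27, adjusted p = 0.000227). Co-receptors had 13 higher and 1 lower members, with Klb at 8.03 and 7.93 CPM at day 17, against 3.87 and 4.38 CPM at day 16 (log2 fold change 0.95 ± 0.26, adjusted p = 0.00421), and with Flrt2 (0.94) and Hs6st1, which adds sulfate to heparan sulfate (0.79), next to it on the log2 scale. Adaptors and kinases had 11 higher and 6 lower members, among them Plcg1 (-1.04) and Braf (0.75).

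With GW3965 at day 17, 1 ERK target was higher and 6 were lower of 13, against 17.2% higher and 18% lower over all genes. Egr1 had 82.8 and 78.4 CPM with GW3965, against 486 and 506 CPM at day 17 (6.15-fold lower, log2 fold change -2.62 ± 0.10, adjusted p = 4.45e-13), and Dusp5 1.52 and 2.44 CPM, against 10.7 and 6.47 CPM (log2 fold change -2.12 ± 0.26, adjusted p = 3.03e-06), and Fosl1 was lower too (log2 fold change -0.79 ± 0.26, adjusted p = 0.0252). Co-receptors had 1 higher and 4 lower, and adaptors and kinases 2 higher and 4 lower, with Braf at 126 and 133 CPM, against 172 and 190.3 CPM (log2 fold change -0.48 ± 0.07, adjusted p = 1.93e-05). The next ones by size on the log2 scale were Sos1 (-0.25) and Map2k1 (0.20), and among co-receptors Gpc4 (-0.41), Hs6st1 (-0.40) and Ext1 (-0.39). With GW3965 at day 16, 1 ERK target was higher and 5 were lower of 13, against 13.0% higher and 18.7% lower over all genes, with Il17rd (log2 fold change -0.88 ± 0.10, adjusted p = 1.59e-06) and Ier3 (log2 fold change -0.68 ± 0.17, adjusted p = 0.00386) lower and Dusp4 (log2 fold change 0.48 ± 0.12, adjusted p = 0.00464) higher. Co-receptors had 2 higher and 9 lower members, and Sulf1 had 202 and 161 CPM with GW3965, against 379.8 and 444 CPM at day 16 (log2 fold change -1.18 ± 0.11, adjusted p = 1.89e-07). Gpc4 (-0.69) and Gpc3 (-0.67) were lower beside it on the log2 scale, while mesenchyme markers were lower in the same libraries, and the part of the markers was not tested. Adaptors and kinases had 5 higher and 3 lower members, led by Frs3 (0.51), Shc1 (-0.44) and Araf (0.32). None of these pathway values is given without single libraries of day 16 with GW3965.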

How the data were processed

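Values were gene counts, 1 table per library, as deposited by the authors. The submitters' processing notes name build mm10 with TopHat2 2.0.7, Cufflinks 2.0.2, HTSeq 0.6.0 and Cuffdiff 2.0.2, without roles. The annotation and strand setting are not given in the sources used here, so reads of overlapping opposite genes cannot be told apart. The 5 summary lines of each table stayed out of library sizes: reads in no gene made up 62.77 to 65.92% of a library, or 42.14 to 43.36% at day 17, where reads aligned more than once were listed as well (63.40 to 63.61% with those set aside).

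From these counts, all 9 groups were fitted together with edgeR 4.0.16 (R 4.3.3): filterByExpr kept 17166 of 23420 genes (2530 had no count), TMM factors were 0.9124 to 1.108, and quasi-likelihood tests had 9 residual and a median of 10.41 prior degrees of freedom. The common biological coefficient of variation was 6.471%. P values were adjusted by Benjamini and Hochberg over all genes tested in a comparison, and a gene was called at an adjusted p below 0.05. The fit was also run on counts simulated from its own means and spread, which cannot test whether that spread holds in each group. CPM used TMM-scaled library sizes. The limit that a count of 0 allows, 3 counts, comes to 0.0670 to 0.1791 CPM on gene counts without TMM scaling. Where a library had 3 counts or fewer, a ratio of summed counts with an exact interval is given in place of the fitted fold, or beside it where leaving out a library was examined; differences between responses are fitted values. Intervals and limits cover counting error only. Values in every library were printed for members called in at least 1 comparison or at 5 CPM or more in a group, and up to 3 called genes per pathway list were named by the largest absolute log2 fold change, beside Sos1, named after its value was seen. Values of some pathway genes are not reported here. Members and lists were chosen with earlier results of these data known. Alternatives used limma 3.58.1, DESeq2 1.42.0, other filters and scalings, a replicate block, fits of fewer groups and fits without single libraries.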

Additional observations from a re-analysis of the deposited data

Results flagged for a closer look

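The responses to GW3965 differed between settings for 30 pairs of an FGF gene and a comparison. Each pair passed a test of the difference itself in the edgeR fit (adjusted p below 0.05). Of 29 FGF genes, 13 (44.8%) differed between day 17 and day 16, against 37.0% of all genes. Between day 16 and ES cells 11 (37.9%) differed, against 14.8%, and between day 17 and ES cells 6 (20.7%), against 18.2%. A positive value means a higher log2 response in the setting named before the other. Groups of 2 libraries are too small for a test of a single deviating library, and the comparisons share libraries, so the values are given side by side.

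Between day 17 and day 16 the response of Fgf8 differed by 4.51, of Fgf15 by 3.71, of Fgf4 by 2.55 and of Fgf2 by 1.98. Smaller positive differences were those of Fgf1 (1.29), Fgf5 (0.86), Fgf11 (0.82), Fgfr3 (0.62) and Fgfr1 (0.45). Fgf15 and Fgf4 were lower with GW3965 at day 16 and higher at day 17, and Fgf8 rests on 7 and 12 counts at day 17 with GW3965 and 1 and 5 counts at day 17. The response was lower at day 17 for Fgf21 (-2.61), Fgf12 (-1.07), Fgf13 (-1.01) and Spry1 (-0.94). Day 17 and day 16 also differ in the handling of reads aligned more than once, which each response compares within a day. Fgf11 was no longer called with the DESeq2 Wald test (adjusted p = 0.0514). Fgf11 and Fgf2 were no longer called without day 16 replicate 2 or without day 17 replicate 1 (adjusted p = 0.058 to 0.104). Fgf11, Fgf2 and Fgf5 were no longer called without day 16 GW3965 replicate 2 (adjusted p = 0.0725 to 0.132). Fgf11 and Fgf5 were no longer called without day 17 replicate 2 or without day 17 GW3965 replicate 1 (adjusted p = 0.0781 to 0.192). Fgf5 was no longer called with limma-voom, in a fit of only the groups compared, without day 16 replicate 1 or without day 16 GW3965 replicate 1 (adjusted p = 0.0606 to 0.155). Fgf15 had a difference of 4.72 without day 16 GW3965 replicate 1 and 3.12 without day 16 GW3965 replicate 2. Fgf2 had a difference of 2.63 without day 16 GW3965 replicate 1. Fgf21 had a difference of -3.23 without day 17 GW3965 replicate 2. Fgf4 had a difference of 3.27 without day 16 GW3965 replicate 1. Fgf8 had a difference of 6.15 without day 16 GW3965 replicate 1, 3.77 without day 16 GW3965 replicate 2, 3.56 without day 17 replicate 1 and 6.21 without day 17 replicate 2.

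Between day 16 and ES cells the response was lower at day 16 for the ligands Fgf8 (-3.16), Fgf15 (-2.96), Fgf4 (-1.41), Fgf5 (-1.31) and Fgf1 (-0.99). It was also lower for Spry4 (-0.78), Fgfbp3 (-0.74), Fgfr1 (-0.71), Dusp6 (-0.69) and Spry1 (-0.44), and higher for Fgf13 (0.77). Dusp6, Fgf4, Spry1 and Spry4 were no longer called without ES control replicate 2 (adjusted p = 0.0607 to 0.122). Dusp6 and Fgfbp3 were no longer called without day 16 GW3965 replicate 1 (adjusted p = 0.0591 to 0.0666). Dusp6, Fgf1, Fgf4, Fgfbp3 and Spry1 were no longer called without ES GW3965 replicate 1 (adjusted p = 0.0621 to 0.136). Fgf1 was no longer called with the DESeq2 Wald test, in a fit of only the groups compared or without the day 17 libraries (adjusted p = 0.0515 to 0.0559). Fgf1 and Fgf4 were no longer called with limma-voom (adjusted p = 0.0694 to 0.0804). Fgf1, Fgf4 and Fgfbp3 were no longer called without ES control replicate 1 or without ES GW3965 replicate 2 (adjusted p = 0.0597 to 0.189). Fgf1, Fgf4, Fgfbp3 and Spry1 were no longer called without day 16 replicate 1 (adjusted p = 0.0745 to 0.224). Fgf1 and Spry1 were no longer called without day 16 replicate 2 (adjusted p = 0.0745 to 0.0754). Fgf1, Fgf4 and Spry1 were no longer called without day 16 GW3965 replicate 2 (adjusted p = 0.123 to 0.252). Fgf15 had a difference of -3.97 without day 16 GW3965 replicate 1 and -2.37 without day 16 GW3965 replicate 2. Fgf4 had a difference of -2.14 without day 16 GW3965 replicate 1. Fgf8 had a difference of -4.80 without day 16 GW3965 replicate 1 and -2.42 without day 16 GW3965 replicate 2.

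Between day 17 and ES cells the response was lower at day 17 for Fgf21 (-3.45), Spry1 (-1.38), Fgfbp3 (-0.84), Dusp6 (-0.74) and Fgfr1 (-0.26), and higher for Fgf4 (1.14). Dusp6, Fgf4, Fgfbp3 and Fgfr1 were no longer called without day 17 replicate 1 (adjusted p = 0.0516 to 0.136). Dusp6, Fgf4 and Fgfr1 were no longer called without ES GW3965 replicate 1 (adjusted p = 0.0547 to 0.115). Fgf4 was no longer called with limma-voom (adjusted p = 0.11). Fgf4, Fgfbp3 and Fgfr1 were no longer called without ES control replicate 1 (adjusted p = 0.0606 to 0.105). Fgf4 and Fgfr1 were no longer called without day 17 replicate 2 (adjusted p = 0.0848 to 0.0943). Fgf4 and Fgfbp3 were no longer called without day 17 GW3965 replicate 1 (adjusted p = 0.0528 to 0.268). Fgfr1 was no longer called without ES control replicate 2, without day 17 GW3965 replicate 2 or without ES GW3965 replicate 2 (adjusted p = 0.0636 to 0.129). Fgf21 had a difference of -4.29 without ES control replicate 2 and -4.06 without day 17 GW3965 replicate 2.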

How the results depend on the processing

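Over 141 calls of FGF genes, 87 held under every alternative run, 54 were lost under at least 1, and none changed direction. In a fit of only the groups compared, the FGF genes called in ES cells, each with the share of all genes called in that fit, were 8 for LG268 (5.60%), 4 for GW3965 (2.46%), 3 for both ligands (2.87%), 7 for LG268 against GW3965 (5.92%), 1 for both ligands against LG268 (0.377%) and 2 for both ligands against GW3965 (0.749%). Without a filter on low counts they were 3 for GW3965 (0.785%), 3 for LG268 against GW3965 (1.27%) and 2 for the departure from additivity in ES cells (2.95%), and 10 for GW3965 at day 17 against ES cells (16.2%). The DESeq2 Wald test and limma-voom each gave 3 for LG268 against GW3965 (1.05% and 0.717%) and 1 for the departure from additivity (1.02% and 0.664%), and a fit without the day 17 libraries gave 2 for LG268 against GW3965 (0.598%). Calls were gained as well as lost. Of values not called in the main fit, 20 passed without a filter on low counts and 19 in a fit of only the groups compared. Those fits ended 0 and 14 calls. The DESeq2 Wald test added 8 and ended 5, and limma-voom added 8 and ended 8. The cause of these shifts was not tested.

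With 1 library left out, the count ranged over 2 to 2 for LG268, 1 to 1 for GW3965, 3 to 6 for both ligands, 0 to 0 for LG268 against GW3965, 0 to 7 for both ligands against LG268 and 1 to 4 for both ligands against GW3965. It ranged over 21 to 24 at day 8, 18 to 21 at day 16, 13 to 16 at day 17, 9 to 18 for GW3965 at day 16 and 9 to 13 for GW3965 at day 17. Both lowest values for GW3965 came without replicate 1 of the control group of that day. The departure from additivity ranged over 0 to 2, and the differences between responses over 3 to 6 (day 17 against ES cells), 6 to 9 (day 16 against ES cells) and 10 to 13 (day 17 against day 16). A group left with 1 library is assumed to vary like the others. The share of all genes called also moved with the library left out. For both ligands against LG268 and for the departure from additivity, that share was highest without both-ligand replicate 2. The ranges are therefore not read as a trait of FGF genes.

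A replicate block left 183 of 185 values on the same side of the threshold, moved 1 call in and ended 1, Fgfbp1 with both ligands against LG268 (adjusted p = 0.0578), and no count of called genes moved by over 1.5 times. Same-numbered libraries of 36 group pairs correlated in their deviations at -0.146 to 0.101, so no strong shared deviation was seen. These correlations cannot show whether same-numbered libraries were prepared together, which the labels do not say. With DESeq2 size factors in place of TMM, calls over all genes were 359 higher and 351 lower in place of 280 and 442 for both ligands against LG268, and 952 and 938 in place of 632 and 1199 for both ligands against GW3965. For FGF genes at a few counts, small changes were not detectable at this depth.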
